A study of Saccharomyces cerevisiae with 6 samples.

Results

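The 10 yeast genes described here act in phosphate use and were followed across 6 arrays: the secreted acid phosphatase genes PHO5, PHO3, PHO11 and PHO12, the alkaline phosphatase gene PHO8, the phosphate transporter genes PHO84 and PHO89, and the regulators PHO81, PHO80 and PHO4. The members are all probe sets whose listed genes are only among these 10 genes. They are 10 of 5923 listed genes and are read by 9 of the 9275 probe sets that are not controls: 8 with 1 gene each, and 1 that reads PHO11 and PHO12 together and cannot separate them. The arrays compared 3 samples of Saccharomyces cerevisiae with histone H3 K4,79R, in which lysines 4 and 79 of H3 are arginine, with 3 samples of a wild-type strain. Both strains were grown in YPD, a rich glucose medium, to mid-logarithmic phase. The labels give neither the strain background nor the mating type, and do not say how the mutant H3 is carried or whether the 3 samples of a strain came from separate cultures. If they did not, the spread that the p-values rest on is technical.

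The PHO pathway matches the uptake and release of inorganic phosphate to its supply. When phosphate is plentiful, the cyclin Pho80 and its kinase Pho85 phosphorylate the transcription factor Pho4, which then leaves the nucleus, and PHO5 and PHO84 are kept low. When phosphate is scarce, Pho81 inhibits the kinase, and Pho4 acts with Pho2 on its target genes. The PHO5 promoter is a classic model of chromatin control, because positioned nucleosomes cover it while the gene is repressed. In wild-type yeast, Set1 methylates lysine 4 of H3 and Dot1 methylates lysine 79, and arginine at these places is no substrate for either enzyme.

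Each value is a MAS5 signal, an array intensity on a linear scale. The median signal was 31.8 to 42.9 on the K4,79R arrays and 34.1 to 36.8 on the wild-type arrays. Control probe sets at the 3′ and 5′ ends of a transcript report on RNA integrity. For ACT1 their ratio was 1.00 on K4,79R array 1 and 1.5 to 1.64 elsewhere. For SPT15 it was 2.79 and 3.35 on K4,79R arrays 2 and 3, and 5.02 to 6.15 elsewhere. With 3 arrays a group, precision is limited by their number.

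Changes were tested by limma on log2(signal + 3.605) over 7420 probe sets, and a call required p under 0.05 after Benjamini-Hochberg adjustment. All 9 PHO probe sets passed the filter on low signals. Of these, 1 was called higher in K4,79R and 1 lower: PHO5 and the shared PHO11/PHO12 probe set. Over all probe sets tested, 3.11% were called, 2.09% as higher and 1.02% as lower. The share of 2 of 9 is larger than this background but rests on 2 probe sets. The members were chosen with earlier results of these data known, so this share is no test of the set. With other scalings of the arrays the balance of all calls moved, with 155 higher and 76 lower as deposited, but 174 higher and 173 lower after quantile normalization, 173 and 214 with a common median, and 204 and 170 with the further constants of the K4,79R arrays divided out. The 3 K4,79R values lay beyond the 3 wild-type values for 5 of the 9 PHO probe sets, beside 27.6% of all probe sets tested. Of the 9 changes, 4 were positive and 5 negative, with a median log2 change of -0.06 beside 0.05 over all probe sets tested. The median size of the change was 0.30 on the log2 scale, beside 0.22 over all.

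**Figure D1:**
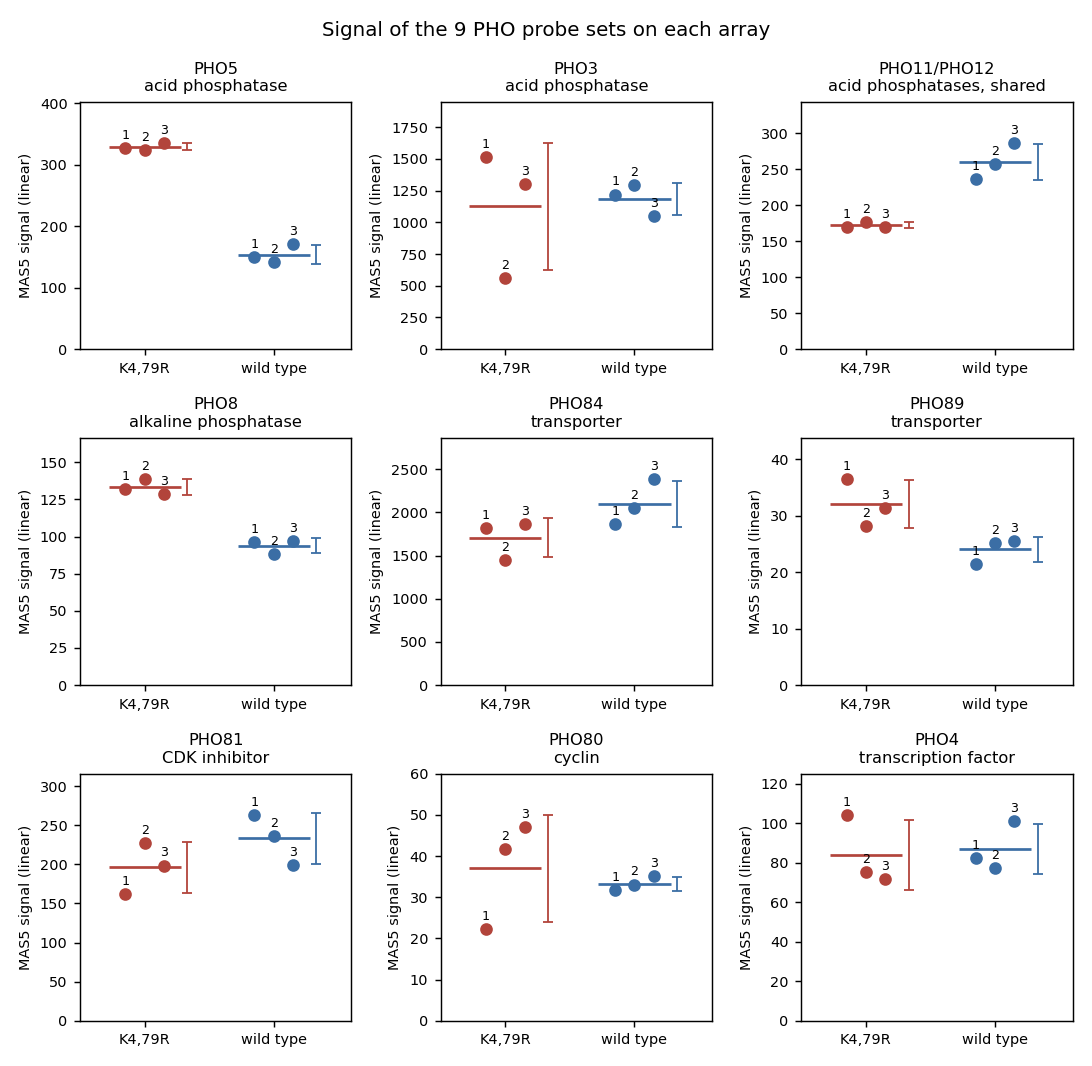
Signal of each PHO probe set on each array. The vertical axes give the MAS5 signal on a linear scale from 0; numbered points are arrays, horizontal lines are means of 3 arrays and bars are SD, with K4,79R in red and wild type in blue. PHO5 reads 324 to 335 on the K4,79R arrays and 141 to 170.3 on the wild-type arrays, and PHO11/PHO12 shows the opposite order.

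PHO5 (YBR093C), the main phosphate-repressible acid phosphatase of the cell surface, was higher in K4,79R. Its signal was 328, 324 and 335 on K4,79R arrays 1, 2 and 3, against 149.8, 141 and 170.3 on wild-type arrays 1, 2 and 3. Every K4,79R array was above every wild-type array. The means were 329 ± 5.63 in K4,79R and 154 ± 14.95 in wild type (SD, n = 3 each). This is a log2 change of 1.08 ± 0.12 (SE), or 2.12-fold, with a 95% interval of 0.81 to 1.36 and a limma adjusted p of 0.0072. PHO5 stood at place 18 of the 7420 probe sets by p and at place 69 by size of rise. Relative to its mean, its spread was 1.71% among the K4,79R arrays and 9.72% among the wild-type arrays. The closeness of the K4,79R values depended on the scaling, with a spread of 10.1% after the further constants were divided out, 12.2% after quantile normalization and 16.2% with a common median. In bulk RNA, more cells that express PHO5 and more PHO5 RNA per cell cannot be told apart. The call was lost without wild-type array 1 (log2 1.07, adjusted p = 0.0513) and without wild-type array 2 (1.03, adjusted p = 0.0635).

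PHO11 (YAR071W) and PHO12 (YHR215W) encode further secreted acid phosphatases and share a probe set. Like PHO5 and PHO3, each has an annotated gene length of 1404 bases. This probe set was lower in K4,79R. Its signal was 170, 177 and 169.5 on K4,79R arrays 1, 2 and 3, against 236, 256.5 and 286 on wild-type arrays 1, 2 and 3. The groups did not overlap. The spread among the K4,79R arrays was 2.43% of the mean as deposited, but 9.60% with the constants divided out, 9.36% after quantile normalization and 14.8% with a common median. The means were 172 ± 4.18 in K4,79R and 260 ± 25.1 in wild type (SD, n = 3 each), a log2 change of -0.58 ± 0.12 (SE), with a 95% interval of -0.85 to -0.30. The limma adjusted p of 0.0455 is just under the threshold. The call was lost without any of the wild-type arrays 1, 2 and 3 (adjusted p = 0.136, 0.204 and 0.143) and without K4,79R array 2 or 3 (0.119 and 0.145), while it held without K4,79R array 1 (0.0181). It was also lost with no filter on low signals (0.0545) and with no intensity trend (0.0648). Which of both genes fell, or whether both did, cannot be read from a shared probe set.

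Per array, the log2 signal of PHO5 was set against that of its paralogs, so that a factor common to an array largely cancels. The change of PHO5 exceeded that of PHO11/PHO12 by 1.66 ± 0.07 (SE) on the log2 scale, a 3.16-fold difference between their ratios of K4,79R to wild type. Every K4,79R array lay above every wild-type array in this measure, with a gap of 1.504. The exact permutation test, two-sided, gave p = 0.1, which is the smallest that 3 against 3 arrays allow, and 0.1 after adjustment over the 2 pairs compared. The change of PHO5 exceeded that of PHO3 by 1.27 ± 0.46 (SE), also with an exact permutation p of 0.1 and with no overlap of the groups. The difference from PHO3 was 0.85 without K4,79R array 2, and that from PHO11/PHO12 stayed between 1.58 and 1.71 under every alternative run.

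PHO3 (YBR092C), an acid phosphatase gene that is not repressed by phosphate but by thiamine, lies directly beside PHO5. Its signal was 1512, 563 and 1302 on K4,79R arrays 1, 2 and 3, against 1219, 1291 and 1046 on wild-type arrays 1, 2 and 3. K4,79R array 2 was the lowest of all 6 arrays and K4,79R array 1 the highest, so that the groups overlapped. The spread was 44.3% of the mean in K4,79R and 10.6% in wild type. The log2 change of -0.19 ± 0.34 (SE) was not called (limma adjusted p = 0.789), and its 95% interval of -0.97 to 0.60 is the widest of the 9. Without K4,79R array 2 the sign turned, to 0.25 (adjusted p = 0.466).

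**Figure D2:**
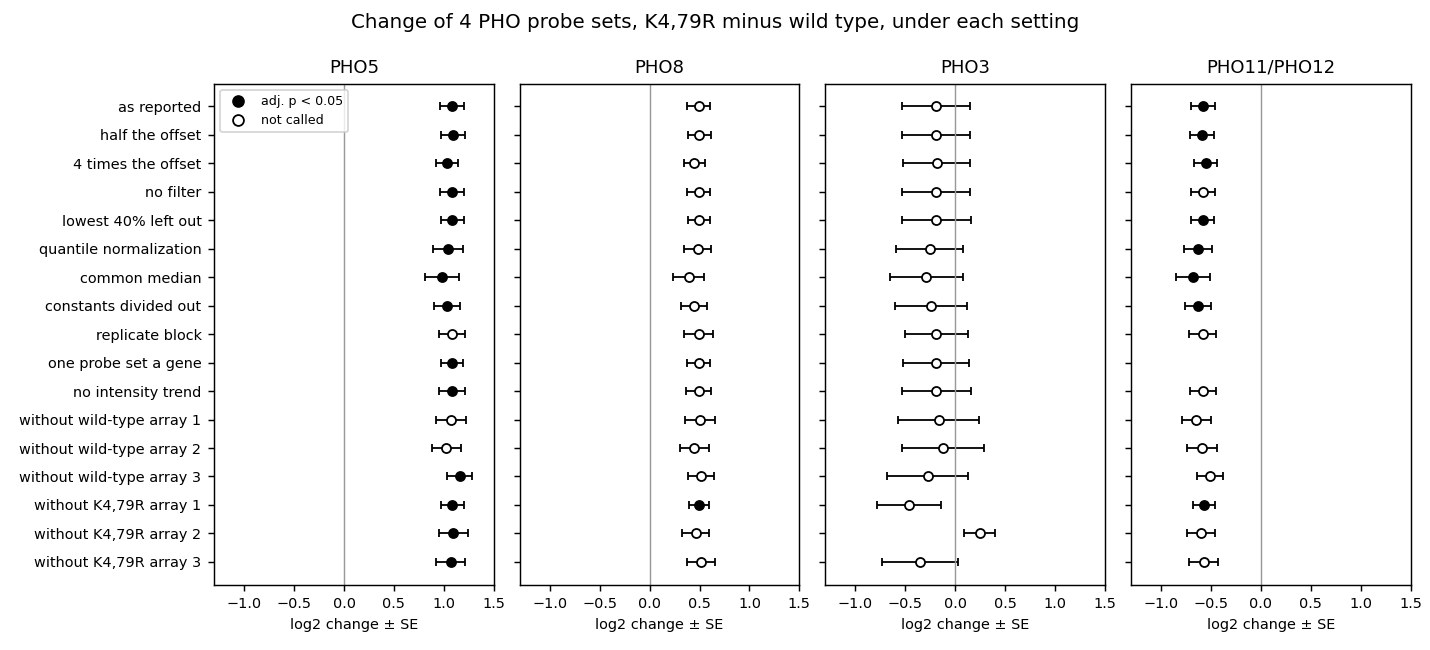
Log2 change, K4,79R minus wild type, of 4 PHO probe sets under each setting of the fit. The horizontal axes give the log2 change with its SE, filled points passed an adjusted p of 0.05, and the shared PHO11/PHO12 probe set has no value in the fit of 1 probe set a gene. PHO5 stays between 0.98 and 1.16 and PHO11/PHO12 between -0.68 and -0.51, while PHO3 runs between -0.46 and 0.25.

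PHO8 (YDR481C) encodes the alkaline phosphatase of the vacuole and is a weaker target of Pho4 than PHO5. Its signal was 132, 139 and 128 on K4,79R arrays 1, 2 and 3, against 96.2, 88.0 and 97.0 on wild-type arrays 1, 2 and 3. Every K4,79R array was above every wild-type array. The log2 change was 0.49 ± 0.12 (SE), or 1.41-fold, with a 95% interval of 0.22 to 0.76, and it missed the threshold (limma adjusted p = 0.0672). It was called without K4,79R array 1, at 0.50 (adjusted p = 0.0209), in a fit that called 1092 of all 7420 probe sets higher.

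The transporter genes differed from each other in sign, and neither was called. PHO84 (YML123C), the high-affinity phosphate and proton symporter of the plasma membrane, had a signal of 1817, 1448 and 1862 on K4,79R arrays 1, 2 and 3, against 1866, 2046 and 2388 on wild-type arrays 1, 2 and 3. The groups did not overlap, but K4,79R array 3 and wild-type array 1 were nearly equal. Of the probe sets that are not controls, 98.4% had a mean over all arrays below that of PHO84. For PHO5 this share was 84.7%, so neither probe set read low on these arrays. The log2 change of PHO84 was -0.30 ± 0.15 (SE), with a 95% interval of -0.65 to 0.06 (limma adjusted p = 0.303). The RefSeq annotation places a noncoding RNA gene, YNCM0001W, over PHO84, and the labels do not say which strand the probes read. PHO89 (YBR296C), the sodium and phosphate cotransporter, had signals of 36.5, 28.1 and 31.4 on K4,79R arrays 1, 2 and 3, against 21.5, 25.1 and 25.5 on wild-type arrays 1, 2 and 3. All K4,79R values were above all wild-type values. The log2 change was 0.36 ± 0.15 (SE), with a 95% interval of 0.01 to 0.72 (limma adjusted p = 0.232). The offset of 3.605 is a sizeable part of such signals and understates the change.

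None of the 3 regulators was called. PHO81 (YGR233C), the inhibitor of the Pho80-Pho85 kinase and itself a target of Pho4, had signals of 162, 228 and 198.5 on K4,79R arrays 1, 2 and 3, against 263, 236 and 199.5 on wild-type arrays 1, 2 and 3. The groups overlapped, and the log2 change was -0.25 ± 0.17 (SE; limma adjusted p = 0.426). PHO80 (YOL001W), the cyclin, had signals of 22.3, 41.8 and 47.0 on the K4,79R arrays, against 31.7, 33.1 and 35.1 on the wild-type arrays. Here K4,79R array 1 was the lowest of all 6 arrays and the other K4,79R arrays were the highest. The log2 change was 0.08 ± 0.25 (SE; limma adjusted p = 0.875), and 0.38 without K4,79R array 1 (adjusted p = 0.0716). The sign of the PHO80 change turned with quantile normalization (-0.02) and with a common median (-0.01). PHO4 (YFR034C), the transcription factor, had signals of 104, 75.6 and 71.9 on the K4,79R arrays, against 82.5, 77.4 and 101 on the wild-type arrays. The log2 change was -0.06 ± 0.18 (SE; limma adjusted p = 0.874), with a 95% interval of -0.48 to 0.36, and its sign depended on which array was left out.

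**Figure D3:**
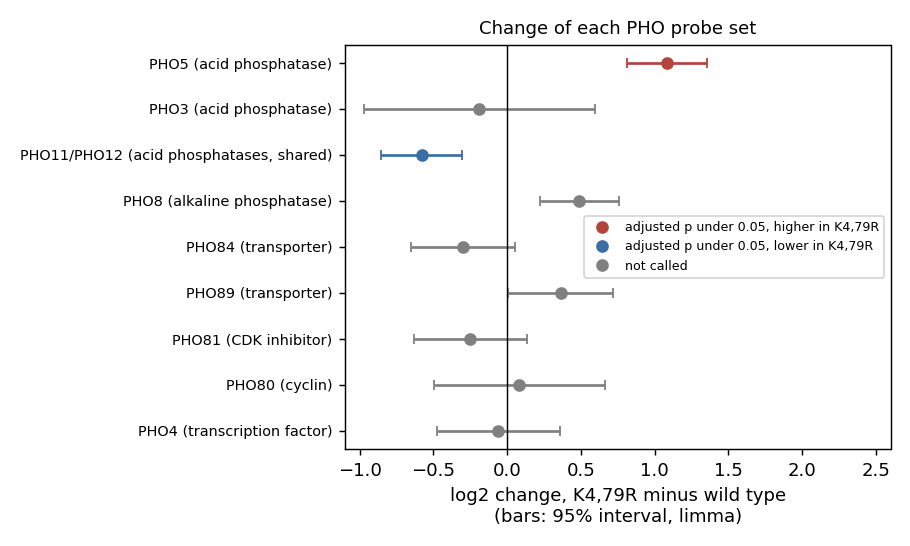
Log2 change of each PHO probe set, K4,79R minus wild type, with its 95% interval from limma (3 arrays a group). Only the intervals of PHO5, PHO8 and PHO89 lie wholly above 0 and only that of PHO11/PHO12 wholly below it, and of these PHO5 and PHO11/PHO12 passed the adjusted threshold.

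Other genes of phosphate use gave no call. Of 14 tested genes for further PHO regulators, transporters and inositol phosphate enzymes, none was called by limma in either direction. The share called among all probe sets tested was 3.11%, so few or no calls among 14 genes were likely. Of the 14, 4 had an unadjusted p under 0.05, beside 21.1% of all probe sets tested. The log2 changes of the 14 ran between -0.30 and 0.62, with a median of -0.03. The low-affinity transporter genes PHO90 and PHO87 were at -0.05 ± 0.13 and -0.18 ± 0.13 (SE). SYG1 was at -0.01 ± 0.20, and PHO86, whose product is needed for Pho84 to leave the endoplasmic reticulum, was at -0.30 ± 0.23. Without K4,79R array 1, 2 were called higher, the inositol pyrophosphate kinase gene VIP1 (0.38, adjusted p = 0.0352) and DDP1, which encodes a phosphatase of these pyrophosphates (0.46, adjusted p = 0.0331). That fit called 1092 higher and 276 lower of all 7420 probe sets tested. PHO85, the kinase that works with Pho80, was at -0.12 ± 0.11 (limma adjusted p = 0.567). PHO2, which encodes the partner of Pho4, averaged 16.8 ± 3.48 in K4,79R and 9.87 ± 3.36 in wild type (SD, n = 3 each), a log2 change of 0.62 ± 0.24 (SE; limma adjusted p = 0.196). VIP1, DDP1, PHO85 and PHO2 were picked for naming after their values were seen.

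None of 15 tested genes for phosphate storage and scavenging was called either, beside 3.11% of all probe sets tested. An unadjusted p under 0.05 was seen for 5 of the 15, beside 21.1% of all probe sets tested. A positive change was seen for 10 of the 15, beside 56.5% of all probe sets tested, and the changes ran between -0.44 and 0.55 with a median of 0.07. The lowest was that of VTC4, the catalytic subunit of the vacuolar polyphosphate polymerase, with 551 ± 74.7 in K4,79R and 748.5 ± 92.2 in wild type (SD, n = 3 each). Its log2 change of -0.44 ± 0.15 (SE) had a limma adjusted p of 0.153. Without K4,79R array 1 it was called lower (-0.53, adjusted p = 0.0461), and VTC5 (0.57, adjusted p = 0.0294) and PHM6 (0.59, adjusted p = 0.0331), both named for this call, were called higher. Of all 7420 probe sets tested, that fit called 276 lower and 1092 higher. The partner genes of VTC4, VTC1 and VTC2, were at 0.06 ± 0.14 and -0.08 ± 0.20, and the phosphatase gene PHO13 at -0.03 ± 0.12 (SE).

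Thiamine genes were set beside PHO3 because thiamine represses PHO3 as well as several of them. Of 12 tested, 2 were called higher and none lower, beside 2.09% called higher over all probe sets. THI5, THI11, THI12 and THI13 were also on the list of 16 genes. They have no probe set that lists 1 gene alone and were not tested. THI4, which acts in making the thiazole of thiamine, had signals of 209.6, 235 and 223 on K4,79R arrays 1, 2 and 3, against 50.1, 58.8 and 68.2 on wild-type arrays 1, 2 and 3. Every K4,79R array was above every wild-type array, and the fold change was 3.63 (limma adjusted p = 0.00153). THI73, a putative permease gene, was higher 1.73-fold (adjusted p = 0.0441). The call of THI4 held in every alternative run, while that of THI73 was lost when any array other than K4,79R array 1 was left out (adjusted p between 0.119 and 0.18) and without a filter (0.0553). With the lowest 40% of probe sets left out, THI73 was not among those tested. Without K4,79R array 1, THI6, named for this call, was called too, at 0.63 (adjusted p = 0.0148). In that fit 1092 of all 7420 probe sets were called higher. The uncalled THI7, the thiamine transporter gene, was at 0.11 ± 0.19, THI3 at -0.23 ± 0.12, PDC2 at 0.06 ± 0.13 and THI20 at 0.20 ± 0.17 (SE). PHO3, at -0.19, thus had no called change where THI4 did. Whether their changes differ was not tested.

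**Figure D4:**
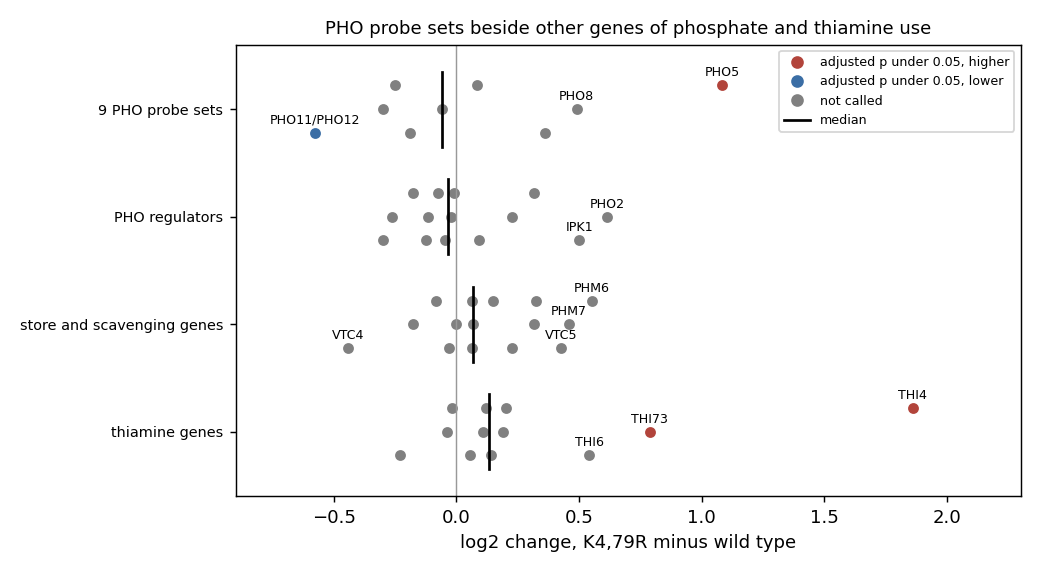
Log2 change, K4,79R minus wild type, of the 9 PHO probe sets and of the tested genes in 3 further lists. Each point is a probe set, vertical bars are medians, colours mark calls, and the genes farthest from 0 are labelled. PHO5, THI4 and THI73 are the called rises and PHO11/PHO12 the called fall.

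The acid phosphatase genes sit at different places on the chromosomes. In the RefSeq order of protein-coding genes, PHO5 is gene 208 from the nearer end of chromosome II, which holds 416, with PHO3 next to it. PHO11 is the outermost gene of its end of chromosome I, and PHO12 is gene 4 from an end of chromosome VIII. Beside PHO5, neither PHO3 nor any tested probe set of TIM12, YBR090C, PBY1, RXT2 or YBR096W was called. Their log2 changes ran between -0.19 and 0.45, the last being that of YBR096W (adjusted p = 0.108). Next to PHO11, the tested probe sets of YAR068W, YAR066W and YAR064W lay between -0.01 and 0.18, none of them called.

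Next to PHO12, on its inner side, YHR214C-D was at 0.18 ± 0.15 (SE) and was not called. YHR214C-E was below the filter, and YHR214C-C has no listed probe set. On the outer side, 3 probe sets of IMD2, which encodes an IMP dehydrogenase, all with a suffix for shared probes, lay between -0.15 and 0.20 without a call. The outermost pair, YHR218W and YHR219W, was read only by probe sets that also list many similar genes at other chromosome ends. Of 6 such probe sets tested for YHR218W, 3 were called lower, and of 7 for YHR219W, 6 were called lower, with none higher. Over all probe sets tested, 1.02% were called lower. The log2 changes of the probe sets of this pair ran between -1.41 and -0.60. Each lists 15 to 20 genes, many of them the same, so they are not separate readings. They give no value for this chromosome end alone.

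**Figure D5:**
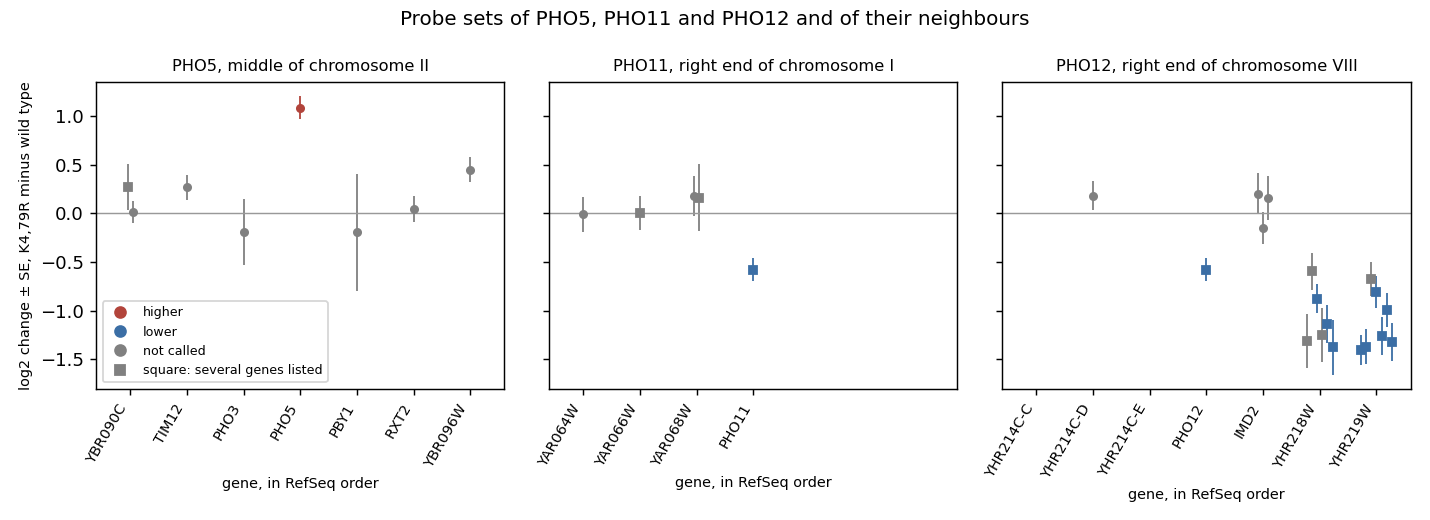
Log2 change with its SE, K4,79R minus wild type, of the probe sets of PHO5, PHO11 and PHO12 and of up to 3 protein-coding genes on either side, in RefSeq order. Squares are probe sets that list several genes. PHO5 is the only called probe set among its neighbours. At the chromosome end that holds PHO11, the shared PHO11/PHO12 probe set is the only called one. Beside PHO12, YHR214C-D and IMD2 were not called, and YHR214C-E and YHR214C-C have no tested value. The outermost genes are read only by shared probe sets.

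The 5 probe sets whose log2 signal followed that of PHO5 most closely over the 6 arrays, of 5272 compared, were those of HSP12, FLR1, OM14, YGR161W-C and GRE1, with Pearson's r between 0.995 and 0.998. The arrays are 2 groups of 3, so that any gene with a clean difference between the strains scores high, and 325 of the 5272 had r over 0.9. HSP12, a membrane-stabilising stress protein gene, averaged 1205 ± 43.9 in K4,79R and 481 ± 42.6 in wild type (SD, n = 3 each), a 2.50-fold rise. GRE1, a stress-induced gene, averaged 51.2 ± 1.54 in K4,79R and 18.8 ± 4.004 in wild type. OM14 was called higher at 1.62-fold (limma adjusted p = 0.0186). FLR1 at 1.4-fold and YGR161W-C at 1.18-fold were not called (limma adjusted p = 0.0833 and 0.286). Among the PHO probe sets the r with PHO5 was 0.983 for PHO8, 0.843 for PHO89 and -0.927 for PHO11/PHO12, and it lay between -0.62 and 0.16 for PHO84, PHO81, PHO3, PHO4 and PHO80. These are descriptions of 6 arrays that share the same 2 strains.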

How the data were processed

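Total RNA was extracted with hot acid phenol and made into biotinylated cRNA, per the labels' protocols. The authors deposited 1 intensity value per probe set and array, which the submitters' processing notes name as MAS5. The K4,79R columns hold multiples of 0.1 of a further constant (0.922, 1.09 and 1.11 for arrays 1, 2 and 3; tolerance 0.001 of that unit), whose basis no source used here gives. The mean signal with 2% trimmed at each end was 113.6, 134.5 and 136.2 on K4,79R arrays 1, 2 and 3, in the order of these constants. On the wild-type arrays it was 123.1 to 123.3. Rescaling was set for trimmed means more than 1.2-fold apart. The highest and lowest were just under that limit, so values were used as deposited. The 60 controls and the lowest 20% of probe sets by mean signal were left out, leaving 7420. The offset of 3.605 equals 0.1 times the median over arrays of their median signals. Changes were fitted with limma 3.58.1 in R 4.3.3 (lmFit, eBayes with an intensity trend, two-sided), after a test on simulated data. Symbols came from the platform annotation, updated through RefSeq assembly R64. No genome build is named for the array, so no coordinates are given.

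The members and gene lists were chosen with earlier results of these data known. Named were all members, the called genes and up to 4 uncalled genes of highest signal of each list, 3 neighbours on either side of PHO5, PHO11 and PHO12, and the 5 genes most like PHO5. Alternatives were other offsets, filters and scalings, each array left out, the replicate number as a block, 1 probe set a gene and no trend.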

Additional observations from a re-analysis of the deposited data

How the results depend on the processing

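PHO5 kept its rise in all 16 alternatives, with log2 changes between 0.98 and 1.16, and its call in 13 of them. The PHO11/PHO12 probe set kept its fall in all 15 that could fit it, between -0.68 and -0.51, and its call in 7. With no filter and with no intensity trend it was no longer called, at -0.58 each, which left 0 PHO probe sets called lower. The same count of 0 came from the fit of 1 probe set a gene, which holds no shared probe sets. Quantile normalization and a common median turned PHO80 to -0.0155 and -0.0140. The counts of all probe sets called lower were 173, 214 and 170 with quantile normalization, with a common median and with the constants divided out, against 76 as deposited.

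Leaving out each array in turn gave log2 changes between 1.03 and 1.16 for PHO5, between -0.64 and -0.51 for PHO11/PHO12, between 0.45 and 0.52 for PHO8 and between -0.46 and 0.25 for PHO3. PHO80 ran between -0.10 and 0.38 and PHO4 between -0.22 and 0.0494. The PHO probe sets called higher ranged between 0 and 2 and those called lower between 0 and 1. All probe sets called higher ranged between 8 and 1092 and those called lower between 0 and 276, the highest counts being those without K4,79R array 1.

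With the replicate number as a block, PHO5 (1.08, adjusted p = 0.056) and PHO11/PHO12 (-0.58, adjusted p = 0.153) were no longer called, so 0 PHO probe sets were called higher and 0 lower, beside 9 higher and 0 lower of all probe sets. THI73 also lost its call (adjusted p = 0.147). This fit has fewer residual degrees of freedom. Same-numbered arrays deviated from their group means with correlations of -0.179, 0.1 and -0.0636 for numbers 1, 2 and 3. The best matches of these numbers were 2, 3 and 1, so none was matched best by its own number. With only 3 arrays a group, these correlations are too few to decide whether the numbers pair the samples.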
